A study of Homo sapiens with 6 samples.

Results

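The genes described here are the MEF2 transcription factors, the class IIa histone deacetylases and the salt-inducible kinases SIK2 and SIK3. They were taken by gene symbol, with earlier results of these data known: MEF2A, MEF2B, MEF2C, MEF2D, HDAC4, HDAC5, HDAC7, HDAC9, SIK2 and SIK3, 10 of the 78932 genes counted. All 10 are described, whatever their values. RNA was sequenced from the KARPAS-45 line, derived from human T-lineage acute lymphoblastic leukaemia, in 3 control libraries and 3 libraries of cells that overexpressed MEF2C (MEF2C-OE). Control cells are labelled wild type and untreated; the labels do not say whether they carried a control vector or went through the sorter. MEF2C-OE cells carried a lentiviral MEF2C driven by the EF1A promoter and linked to mCherry, and mCherry-positive cells were sorted 120 hours after transduction. All cells were grown in the same medium with serum. The replicates are labelled technical. The p-values therefore reflect library-to-library spread alone, which may be technical, and n counts libraries.

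MEF2 proteins bind a short AT-rich element in DNA, and in T cells they are known for control of genes induced by antigen-receptor and calcium signals. Class IIa histone deacetylases have little deacetylase activity of their own. They dock on MEF2 and bring a corepressor complex that holds HDAC3. The SIK kinases phosphorylate class IIa deacetylases, which then bind 14-3-3 proteins and stay in the cytosol. LKB1 (encoded by STK11) switches the SIKs on, and protein kinase A switches them off.

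Between 48218497 and 56890745 reads were assigned to genes in each library. Of 8 T-cell markers all had reads, and their summed level was 2950 to 2973 CPM (counts-per-million, reads scaled to library size) in control and 2449 to 2571 CPM in MEF2C-OE, with 6 of the 8 called lower. These 6 log2 fold changes ran from -0.68 (CD2) to -0.11 (CD3E), and CD5 and CD7 were not called. Over all 19086 genes tested, 20.2% were called lower and 20.8% higher. Markers of other cells were low: MS4A1 (B cell), MYOD1 (muscle), EPCAM (epithelium), COL3A1 (fibroblast) and HBB (erythroid) had 0 reads in every library. Other markers of these lists did have reads. CD79A (B cell) had 490 to 609 a library. PDGFRB (fibroblast) had 199 to 244 in control and 35 to 51 in MEF2C-OE and was called lower (log2 fold change -2.36). CD79B (-0.56), TNNT3 (muscle, -0.88) and COL1A1 (-0.83) were also called lower, and 0 markers of these lists were called higher. Summed levels of 5 B-cell markers were 11.5 to 13.4 CPM in control and 10.7 to 12.1 CPM in MEF2C-OE. For 5 fibroblast and epithelial markers they were 6.27 to 7.56 and 2.09 to 3.06 CPM, for 5 myeloid markers 1.49 to 1.84 and at most 1.24 CPM, and for 5 muscle markers 1.45 to 1.84 and 0.612 to 1.25 CPM. The part of these shifts in the results on the 10 genes was not tested.

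MEF2C is the gene that was overexpressed. It had 10, 1 and 0 reads in the control libraries and 40, 29 and 41 reads in the MEF2C-OE libraries. Each MEF2C-OE library held more reads than any control library, in the direction the labels give. The mean rose from 0.0659 ± 0.0982 CPM to 0.680 ± 0.0730 CPM (SD, n = 3 each). The log2 fold change was 3.28 with a standard error of 0.60 (edgeR adjusted p = 1.50e-05). One control library set much of the control level, and without control replicate 1 the log2 fold change was 5.83. Per kilobase of coding sequence, the MEF2C level in MEF2C-OE libraries was 0.418% of the MEF2A level and 1.01% of the MEF2D level. Counts per gene do not tell reads of the lentiviral copy from reads of the chromosomal gene. The sequence of the lentiviral insert was not given, so whether all of its transcripts were counted as MEF2C is not known. The MEF2C levels and shares given here are those of counted reads and may lie below the level in the cells.

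The calls on the 10 genes went both ways. All 10 passed the filter on low counts, 4 rose, 4 fell and 2 did not pass the test (edgeR quasi-likelihood test, adjusted p under 0.05). MEF2A, MEF2C, SIK2 and SIK3 rose, and MEF2D, HDAC4, HDAC5 and HDAC7 fell. MEF2C was overexpressed and passed the filter through its MEF2C-OE libraries, so its rise was set by the design. Of the 19086 genes tested, 20.8% were called higher and 20.2% lower. The median log2 fold change was -0.02 over the 10 genes and -0.01 over all genes tested. For 9 of the 10 genes the 2 groups of libraries were fully apart, 5 higher, MEF2C among them, and 4 lower in MEF2C-OE. The groups were fully apart for 48.8% of all genes tested. In RNA from whole cell samples, fewer cells that express a gene and less RNA per cell cannot be told apart. In a test against a 1.2-fold change 4 of the 8 calls were kept, MEF2C and SIK2 higher and HDAC5 and HDAC7 lower. The other 4 were lost, MEF2A among them (edgeR adjusted p = 0.0955). In that test 937 of all 19086 genes tested were called higher and 1003 lower.

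**Figure D1:**
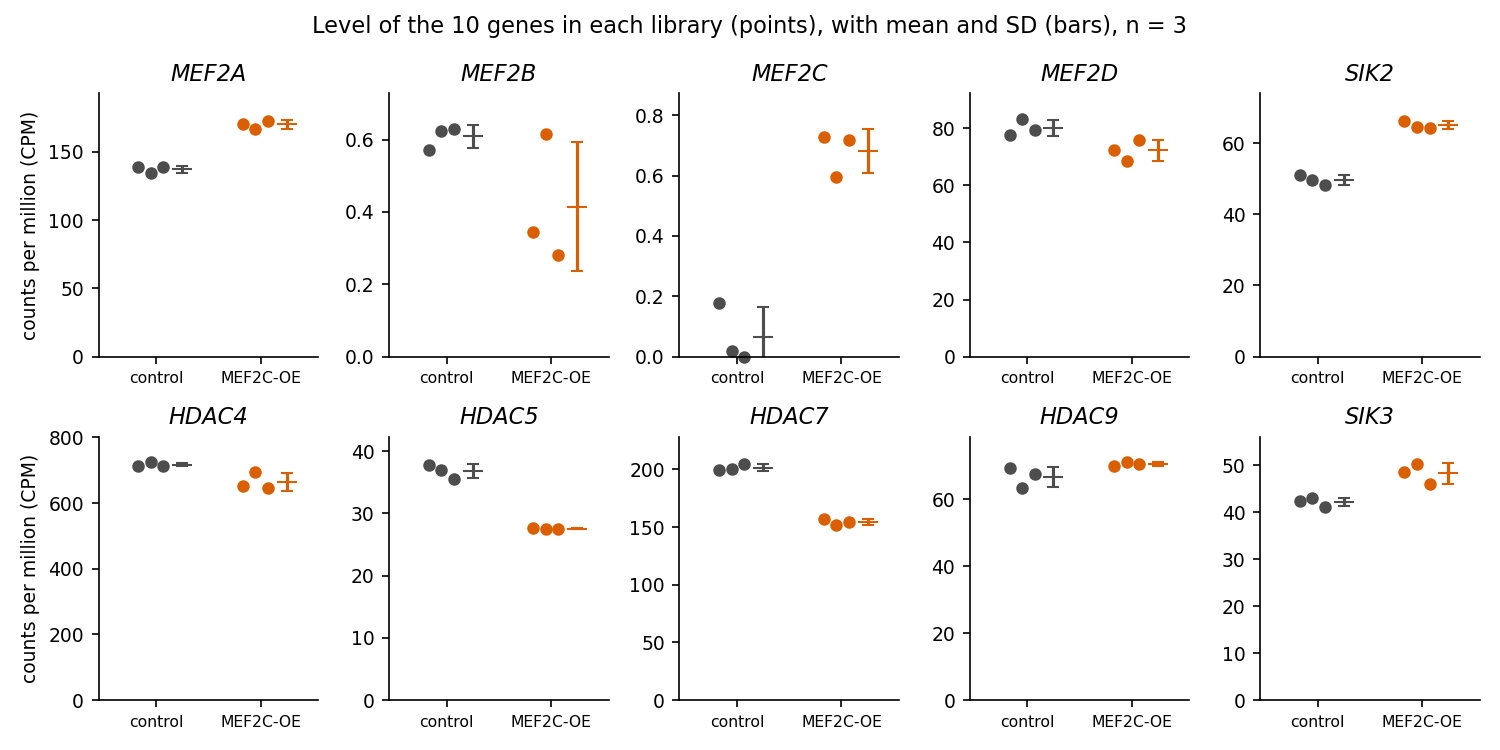
Level of each of the 10 genes in every library, in CPM on an axis of its own; points are libraries, and bars give the mean and SD (n = 3). The MEF2C-OE points lie apart from the control points in all panels except MEF2B.

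Some promoters of these genes hold a MEF2 element, the sequence that MEF2 proteins bind, and those stretches are shown here. RefSeq promoter windows (GRCh38.p14, 250 bases before to 50 after a start) matched 9 of the 10 genes, with 25 starts in all, and both strands were searched. The MEF2 site was found at 3 of these 25 starts (12%) and at 1050 of 35116 starts of all genes (2.99%). Below, the capitals mark the match, and each sequence is written in the direction of its gene.
HDAC9: ccaagaagtgCTATTTTTAGcaaattctcc
MEF2A: ggcttgtctcCTAAAAATAGccccggtgtg
MEF2C: atattccataTTATTTTTAAggtgttctca
The HDAC9 sequence lies on the plus strand at chr7:18086807-18086836, and its site begins 8 bases before a start. The MEF2A sequence lies on the plus strand at chr15:99565951-99565980, 23 to 14 bases before one of 3 starts. The MEF2C sequence lies on the minus strand at chr5:88824500-88824529, 175 to 166 bases before one of 7 starts. The cyclic-AMP response element TGACGTCA, which CREB binds, was searched in the same way and was at 0 of the 25 starts and at 1.85% of all starts. A match is a description of the letters only.

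Among the MEF2 factors, MEF2A and MEF2D carried nearly all of the reads. MEF2A (ENSG00000068305.19, plus strand of chromosome 15, 99565417 to 99716466 in GRCh38) measured 139, 134 and 139 CPM in control and 171, 167 and 173 CPM in MEF2C-OE. Every MEF2C-OE library was above every control library. The mean rose by 24.0%, from 137 ± 2.55 to 170 ± 3.22 CPM, which is 0.31 on the log2 scale with a standard error of 0.027 (edgeR adjusted p = 5.87e-13). The size of this change was larger than that of 64.6% of all genes tested.

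MEF2D (ENSG00000116604.19, minus strand of chromosome 1, 156463727 to 156500828), the other abundant factor, measured 77.8, 83.1 and 79.2 CPM in control and 72.4, 68.6 and 75.9 CPM in MEF2C-OE. The groups did not overlap, with all 3 MEF2C-OE libraries lower. The mean fell from 80.0 ± 2.73 to 72.3 ± 3.63 CPM. On the log2 scale the change was -0.15 with a standard error of 0.037 (edgeR adjusted p = 0.00131). This call was lost when a trend with GC content and transcript length was removed, with a log2 fold change of -0.07 and adjusted p = 0.116.

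MEF2B (ENSG00000213999.17, minus strand of chromosome 19, 19145568 to 19170289), a factor best known from germinal-centre B cells, was close to silent. It had 32, 33 and 32 reads in control and 19, 30 and 16 reads in MEF2C-OE. The second MEF2C-OE library, at 0.617 CPM, lay inside the control range of 0.572 to 0.630 CPM. The log2 fold change was -0.57 with a standard error of 0.39 (edgeR adjusted p = 0.265), so a change was not detectable at this depth. A readthrough gene, BORCS8-MEF2B, shares 73.9% of the MEF2B exon bases and had 1 to 7 reads a library, so reads of the shared part may be missing from both.

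Since MEF2A rose and MEF2D fell, the balance between them moved. Per kilobase of exon, MEF2A made up 61.6%, 59.3% and 61.2% of the summed MEF2 level in control and 68.1%, 68.4% and 67.4% in MEF2C-OE. MEF2D made up 37.4%, 39.7% and 37.8% in control and 31.2%, 30.5% and 32.0% in MEF2C-OE. The mean MEF2A share was 7.29 percentage points higher in MEF2C-OE than in control, and the mean MEF2D share fell by 7.04 points. The groups did not overlap for either share (exact permutation test, two-sided p = 0.1, the smallest that 3 against 3 allows). These shares, and those of the other families below, were not corrected for the trend with GC content and length. With that trend removed the log2 fold change was 0.20 for MEF2A, and -0.07 for MEF2D without a call. By counted reads, which may miss transcripts of the lentiviral copy, MEF2C itself reached a mean of 0.160% of the summed MEF2 level in MEF2C-OE. In control it was 0.0172%. Per kilobase of coding sequence these MEF2C shares were 0.293% and 0.0319%. The sum over the family was 32.6 ± 0.143 CPM per kilobase in control and 36.1 ± 0.941 CPM per kilobase in MEF2C-OE.

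**Figure D2:**
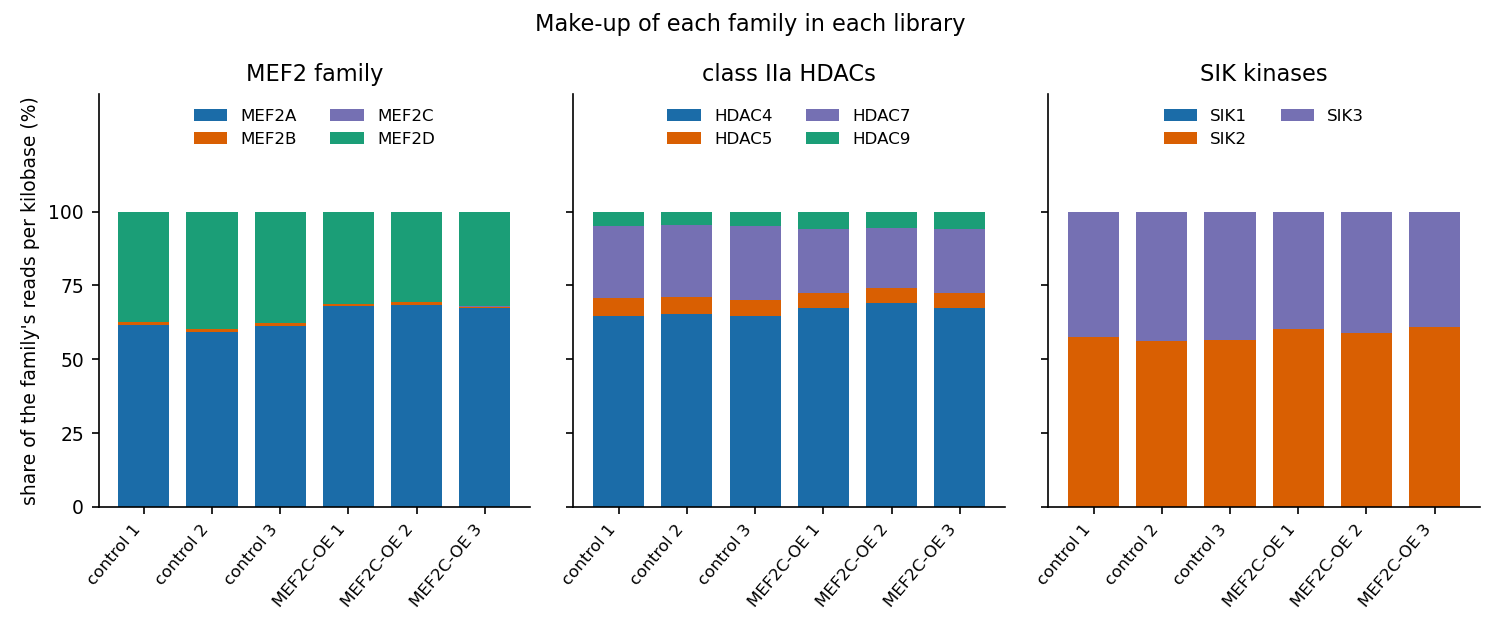
Share of each family's summed level per kilobase of exon taken by each gene, in percent, in every library, as stacked bars. MEF2A takes 59.3% to 61.6% of the MEF2 sum in control and 67.4% to 68.4% in MEF2C-OE; HDAC4 takes most of the class IIa sum in all 6 libraries.

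Among the class IIa deacetylases, HDAC4 stood far above the others. HDAC4 (ENSG00000068024.18, minus strand of chromosome 2, 239048168 to 239401654), known for control of chondrocyte and muscle growth, measured 715, 724 and 714 CPM in control and 652, 695 and 645 CPM in MEF2C-OE. By reads it ranked 136 among all genes in control and 135 in MEF2C-OE. Per kilobase of exon it ranked 601 of 16951 genes in control. The annotated genes next to it that had reads were lower per kilobase: its own control level was 53.7 CPM per kilobase, against 15.8 for ASB1, 14.2 for NDUFA10 and 2.80 for TRAF3IP1, while TWIST2, OR6B2 and OR6B3 had 0 reads in control. These neighbours were chosen after the HDAC4 level was seen.

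HDAC4 was lower in every MEF2C-OE library than in any control library. Its mean fell from 718 ± 5.86 to 664 ± 26.9 CPM, or by 7.51%, with a log2 fold change of -0.11 and a standard error of 0.023 (edgeR adjusted p = 8.09e-05). The second MEF2C-OE library was nearest to control.

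HDAC7 (ENSG00000061273.18, minus strand of chromosome 12, 47782722 to 47833132), the class IIa member known from thymocytes, where it represses NR4A1, measured 200, 200 and 205 CPM in control and 157, 152 and 154 CPM in MEF2C-OE. The gap between the groups was wider than the spread inside either group. The mean fell from 202 ± 2.67 to 154 ± 2.50 CPM, or by 23.5%, with a log2 fold change of -0.39 and a standard error of 0.025 (edgeR adjusted p = 1.63e-16). NR4A1 was itself lower in MEF2C-OE, as given below with the MEF2 target genes.

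HDAC5 (ENSG00000108840.17, minus strand of chromosome 17, 44076746 to 44123702), known as a repressor of MEF2 in heart muscle, measured 37.8, 37.0 and 35.5 CPM in control and 27.6, 27.5 and 27.5 CPM in MEF2C-OE. All MEF2C-OE libraries were lower. The mean fell by 25.1%, from 36.8 ± 1.15 to 27.6 ± 0.0694 CPM, with a log2 fold change of -0.42 and a standard error of 0.051 (edgeR adjusted p = 6.17e-09). Once the trend with GC content and length was taken out, the HDAC5 log2 fold change was -0.27 (adjusted p = 1.76e-05).

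HDAC9 (ENSG00000048052.25, plus strand of chromosome 7, 18086949 to 19002416) has a MEF2 element at one of its starts, shown above, and is known in muscle as a target of MEF2. It measured 69.2, 63.3 and 67.5 CPM in control and 69.9, 71.0 and 70.4 CPM in MEF2C-OE. The groups did not overlap, with the MEF2C-OE libraries higher, and the first control library came within 1 CPM of them. The log2 fold change was 0.08 with a standard error of 0.037 and did not pass the test (edgeR adjusted p = 0.0856). Its direction depended on the analysis: with the GC and length trend removed HDAC9 was called lower, at -0.11 (adjusted p = 0.0130), and without control replicate 1 it was called higher, at 0.11 (adjusted p = 0.0370).

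Within the class IIa family the HDAC4 share of the summed level per kilobase was 64.8% ± 0.389 in control and 68.0% ± 1.03 in MEF2C-OE (SD, n = 3 each). HDAC7 took 24.5% ± 0.349 in control and 21.3% ± 0.805 in MEF2C-OE. HDAC5 took 5.83% and 4.96%, and HDAC9 4.79% and 5.74%. The groups did not overlap for any of these shares (exact permutation test, two-sided p = 0.1 for each, the smallest possible). The summed level was 82.8 ± 0.182 CPM per kilobase in control and 73.0 ± 1.86 in MEF2C-OE.

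Both SIK genes tested rose. SIK2 (ENSG00000170145.5, plus strand of chromosome 11, 111602391 to 111730853), a kinase of class IIa deacetylases and of CREB coactivators, measured 51.1, 49.7 and 48.1 CPM in control and 66.3, 64.6 and 64.1 CPM in MEF2C-OE. All 3 MEF2C-OE libraries were well above control. The mean rose by 30.9%, from 49.6 ± 1.49 to 65.0 ± 1.14 CPM, with a log2 fold change of 0.39 and a standard error of 0.039 (edgeR adjusted p = 4.71e-11).

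SIK3 (ENSG00000160584.17, minus strand of chromosome 11, 116843402 to 117098437), the member known from mouse sleep and bone growth studies, measured 42.4, 43.0 and 41.2 CPM in control and 48.6, 50.3 and 46.0 CPM in MEF2C-OE. The groups did not overlap. The mean rose by 14.3%, from 42.2 ± 0.934 to 48.3 ± 2.20 CPM, with a log2 fold change of 0.19 and a standard error of 0.045 (edgeR adjusted p = 4.55e-04). SIK2 made up 56.7% ± 0.511 of the summed SIK level per kilobase in control and 60.0% ± 1.03 in MEF2C-OE, without overlap (exact permutation test, two-sided p = 0.1, the smallest possible). SIK1, the kinase induced by cyclic AMP, had 2 reads in control replicate 1 and 0 in the other 5 libraries. A near-identical copy of SIK1 is annotated in the human genome, so reads that align to both would not be counted, and these zeros set no limit on its level.

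**Figure D3:**
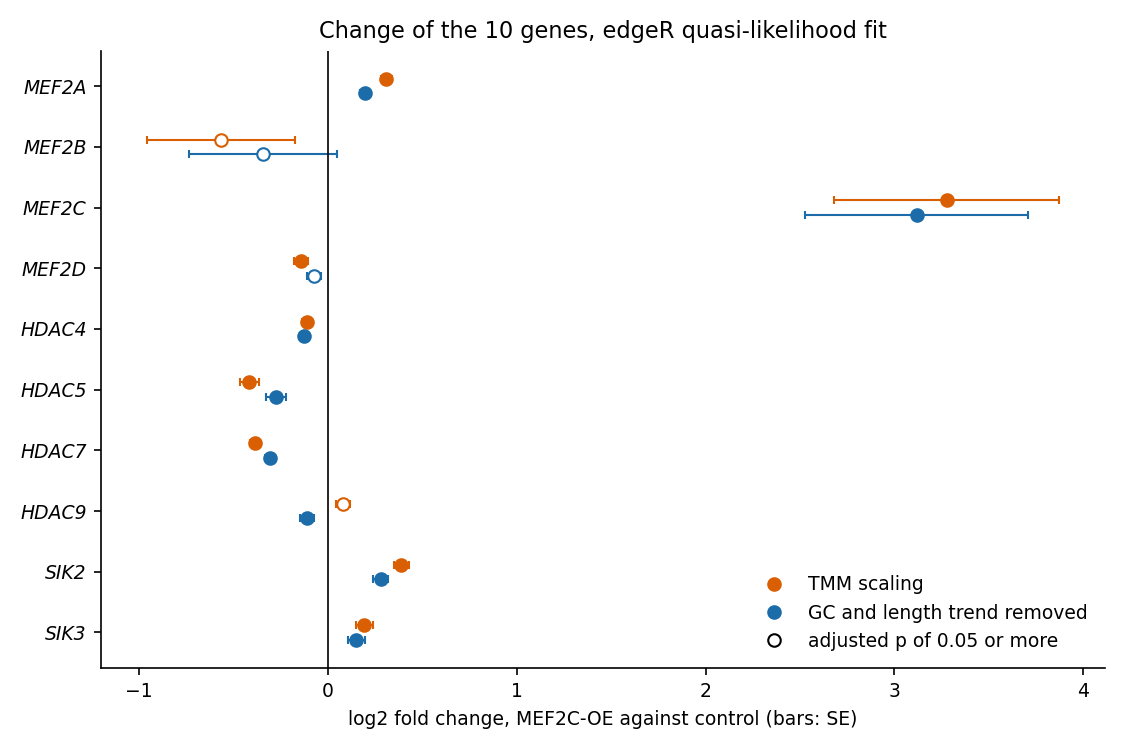
Log2 fold change of MEF2C-OE against control for each of the 10 genes, with its standard error. Points are drawn for counts scaled between libraries by TMM, and for these with the trend with GC content and transcript length removed. Open points had an adjusted p of 0.05 or more. HDAC9 moves from 0.08 to -0.11 between the 2 analyses, and MEF2D moves from -0.15 to -0.07.

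The calls differed in base composition. The 4 genes that rose have a GC content of 39.0% to 50.4% over their transcripts, and the 4 that fell 55.1% to 61.2%. The 39.0% is that of MEF2C, the overexpressed gene, and MEF2A is next at 41.3%. Over all 7491 tested genes in the first range the median log2 fold change was 0.04, and over the 3016 genes in the second range it was -0.13. After a smooth trend with GC content and transcript length was removed, these medians were -0.01 and 0.02. In that analysis MEF2A (0.20), MEF2C (3.12), SIK2 (0.28) and SIK3 (0.15) were still called higher, and HDAC4 (-0.13), HDAC5 (-0.27) and HDAC7 (-0.31) still lower, all as log2 fold changes. No further test of the part that base composition has in the calls was made.

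Ordered by level per kilobase of exon, the control libraries gave HDAC4 (53.7 ± 0.438 CPM per kilobase), HDAC7 (20.3 ± 0.269), MEF2A (19.8 ± 0.368), MEF2D (12.5 ± 0.426), SIK2 (5.07 ± 0.152), HDAC5 (4.83 ± 0.151), HDAC9 (3.96 ± 0.179), SIK3 (3.87 ± 0.0855), MEF2B (0.329 ± 0.0174) and MEF2C (0.00560). Neighbours in this order overlapped between libraries in 2 cases, SIK2 with HDAC5 and HDAC9 with SIK3. In MEF2C-OE the order changed in 2 places. MEF2A, at 24.6 ± 0.466 CPM per kilobase, stood above HDAC7, at 15.5 ± 0.252. HDAC5, at 3.62 ± 0.00911, stood below SIK3 (4.42 ± 0.201) and HDAC9 (4.19 ± 0.0322), which overlapped each other. The last place of MEF2C in MEF2C-OE depended on the length used. Per kilobase of coding sequence MEF2C stood there at 0.429 ± 0.0461 and MEF2B at 0.365 ± 0.157 CPM per kilobase, with overlapping libraries. Lengths came from GENCODE 29, which may not be the annotation used for counting, so levels between genes are approximate.

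**Figure D4:**
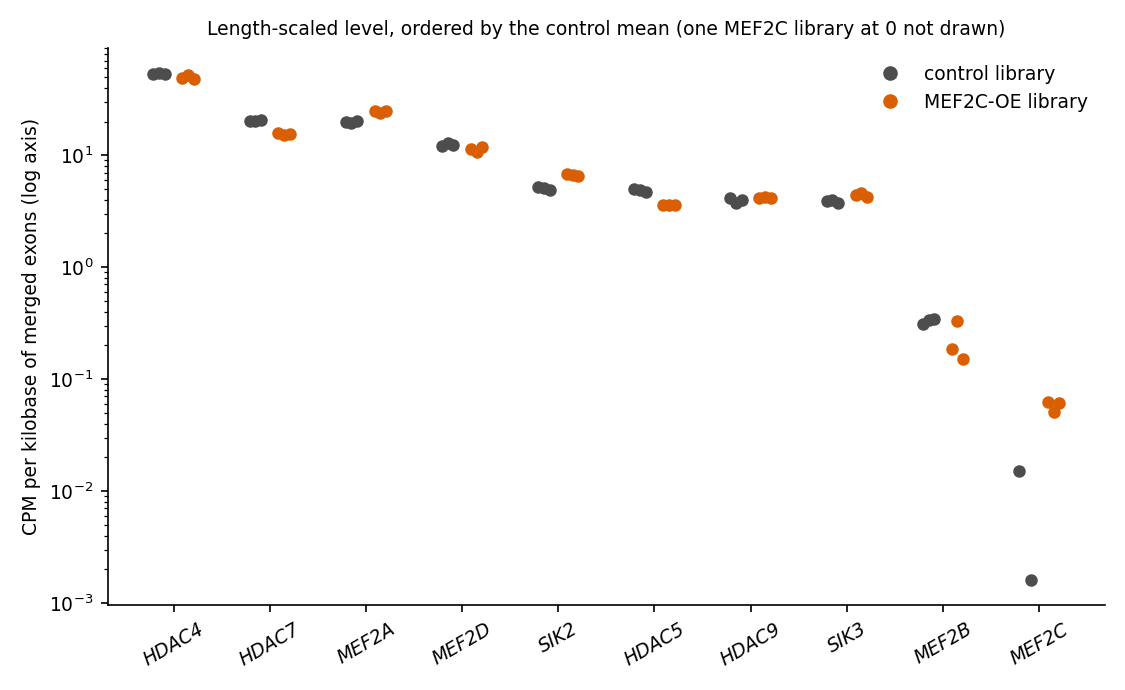
Level of the 10 genes per kilobase of exon (CPM per kilobase, log axis) in control and MEF2C-OE libraries, in the order of the control means; the control library with 0 MEF2C reads is not drawn. HDAC4 is highest in both groups at 53.7 and 49.7 CPM per kilobase. MEF2C is lowest in both on this exon scale, but not in MEF2C-OE per kilobase of coding sequence.

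Genes that overlap the 10 on either strand were examined because strand use in counting is not given. LYSMD4, opposite MEF2A, shares 770 exon bases with it and was called higher with a log2 fold change of 0.15 (edgeR adjusted p = 0.0292), at a mean of 24.6 CPM in control. That call was lost without control replicate 1 (0.14), control replicate 2 (0.14), MEF2C-OE replicate 1 (0.15) or MEF2C-OE replicate 3 (0.14). SLC48A1, a haem transporter gene opposite HDAC7, shares 32 exon bases with it and rose by 0.37 (edgeR adjusted p = 3.45e-05) while HDAC7 fell. PPP2R1B, opposite SIK2, had a log2 fold change of 0.04 (adjusted p = 0.456) while SIK2 rose. The antisense gene HDAC4-AS1 had a log2 fold change of -0.32 (adjusted p = 0.382). Without strand, reads of such pairs cannot be told apart in the bases they share.

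The genes whose pattern over the 6 libraries was nearest to that of MEF2A were KIF20B, a mitotic kinesin (distance 0.0135), MAP3K20, a stress-activated kinase (0.0198), and CDK19, a Mediator kinase (0.0215). For HDAC4 they were ARHGAP45 (0.0273), AP2M1, an endocytic adaptor subunit (0.0281), and NOA1 (0.0310). The distance is Euclidean, over log2 CPM centred on each gene's mean, among 10628 genes. Since most of each pattern is the difference between the groups, nearness here mainly reflects a like fold change. With the GC and length trend removed KIF20B (0.15), MAP3K20 (0.14) and CDK19 (0.20) were called at smaller log2 fold changes than 0.30, 0.30 and 0.31. ARHGAP45 and AP2M1 then stood above 0 and were not called, and the NOA1 call was lost then and without control replicate 2 (-0.10), control replicate 3 (-0.11), MEF2C-OE replicate 1 (-0.088) or MEF2C-OE replicate 3 (-0.093).

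The genes that act on these factors were then described by list, and the lists too were chosen with earlier results of these data known. Of 83 genes in 8 lists, 69 were tested, 30 rose, 20 fell and 19 did not pass, with a median log2 fold change of 0.05. For this and each list count below, the share over all 19086 genes tested was 20.8% higher and 20.2% lower. The 30 that rose had a median GC content of 44.0% and the 20 that fell 56.2%, and the part of this in the list results was not tested beyond the trend-removed values given below. Against a 1.2-fold change 8 of the list genes were called higher and 7 lower, beside 937 higher and 1003 lower of all 19086 genes tested.

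Upstream of the SIKs, 11 of the 12 genes for SIK1, the LKB1 complex and protein kinase A were tested, of which 5 rose and 3 fell (median 0.10). PRKACB, a catalytic subunit of protein kinase A, rose from 62.7 ± 0.740 to 82.5 ± 1.88 CPM (log2 fold change 0.40), while PRKACA, the other catalytic subunit listed, had 0.02 and did not pass (edgeR adjusted p = 0.758). In the LKB1 complex the pseudokinase STRADB (0.33) and the scaffold CAB39 (0.24) rose, and STK11 (-0.17) and STRADA (-0.17) fell. Of the regulatory subunits PRKAR2B (0.29) and PRKAR2A (0.15) rose and PRKAR1A fell (-0.08). With the GC and length trend removed 6 genes of the list were higher and 1 lower. PRKACA was then called higher (0.11, adjusted p = 0.00585) and PRKAR1A lower (-0.17), while STK11 (0.023), STRADA (-0.095) and PRKAR2A (0.065) were not called. The STRADA call was also lost without control replicate 1 (-0.16) or MEF2C-OE replicate 2 (-0.13), and the PRKAR1A call without control replicate 1 (-0.058). The PRKAR2A call was lost without control replicate 1 (0.14), control replicate 2 (0.12) or MEF2C-OE replicate 1 (0.11).

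Other kinases of class IIa deacetylases went both ways, with 4 of 11 tested higher and 4 lower (median -0.01). The protein kinase D genes parted: PRKD2 fell from 90.3 ± 1.46 to 64.8 ± 1.30 CPM (log2 fold change -0.48), PRKD3 rose from 117 ± 3.47 to 153 ± 2.40 CPM (0.38), and PRKD1 had 0 reads. CAMKK1 (-0.41) and CAMKK2 (-0.33), which activate calmodulin-dependent kinases, both fell. With the GC and length trend removed 2 genes of this list were higher and 5 lower, with PRKD2 at -0.28 and PRKD3 at 0.24, both still called. Of the 14-3-3 genes 6 of 7 were tested, of which YWHAB (0.08) and YWHAE (0.06) rose and YWHAZ (-0.13) and YWHAG (-0.11) fell (median -0.03). Once the trend was removed YWHAB was not called, at -0.010, and YWHAZ stood at -0.24. The YWHAE call was lost without control replicate 2 (0.056), control replicate 3 (0.055) or MEF2C-OE replicate 2 (0.051).

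In the corepressor complex that class IIa deacetylases recruit, 5 of 9 genes rose and 1 fell (median 0.29). NCOR1 measured 302, 305 and 305 CPM in control and 421, 397 and 410 CPM in MEF2C-OE, a log2 fold change of 0.43. Every MEF2C-OE library lay above every control library. TBL1XR1 (0.30), TBL1X (0.29) and CBX5 (0.25) also rose, CTBP1 fell (-0.09), and HDAC3, the catalytic member, had -0.07 and did not pass (edgeR adjusted p = 0.142). With the trend removed 6 were higher and 0 lower, with a median of 0.12. CTBP1 was then called higher (0.066), TBL1XR1 stood at 0.12 and NCOR1 at 0.28, both called, and CBX5 at 0.047, not called.

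In the list around activation of MEF2, 8 of 12 tested genes rose and 1 fell (median 0.18). The list also holds the calcineurin inhibitors RCAN1, one of the 8 that rose (0.17), and CABIN1, which did not pass (-0.02, edgeR adjusted p = 0.645). The acetyltransferases CREBBP, from 162 ± 3.07 to 224 ± 3.65 CPM (0.47), and EP300, from 184 ± 3.77 to 243 ± 1.44 CPM (0.40), led the list. Of the calcineurin subunits, PPP3CA (0.33) and PPP3R1 (0.22) rose and PPP3CB fell (-0.11), and MAP2K5, the kinase that activates ERK5, rose (0.31). Without the trend the counts were 8 higher and 1 lower, the median was 0.21, and PPP3CB stood at -0.17.

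In the CREB branch, also a target of SIK signalling, 4 of 6 genes rose and 1 fell (median 0.24). CRTC3, a CREB coactivator held in the cytosol by SIKs, rose from 144 ± 3.65 to 192 ± 3.94 CPM (0.41), and CRTC2 fell from 44.1 ± 0.515 to 39.2 ± 3.96 CPM (-0.17). CREM (0.30), CREB1 (0.24) and ATF1 (0.24), the DNA-binding partners, rose. With the trend removed 4 were higher and 0 lower, with a median of 0.13, CREB1 stood at 0.070 and CRTC2 at 0.027. The CRTC2 call was also lost without MEF2C-OE replicate 2 (-0.086). Of the 6 other histone deacetylases HDAC8 rose (0.22) and HDAC11 (-0.58), HDAC6 (-0.13) and HDAC1 (-0.06) fell, but 0 of the list were higher and 1 was lower with the trend removed. HDAC8 (0.11), HDAC11 (-0.38), HDAC6 (-0.055) and HDAC1 (-0.023) were then not called. The HDAC8 call was lost without control replicate 2 (0.19), control replicate 3 (0.20), MEF2C-OE replicate 1 (0.21) or MEF2C-OE replicate 2 (0.19). The HDAC11 call was lost without control replicate 1 (-0.49), MEF2C-OE replicate 1 (-0.60) or MEF2C-OE replicate 3 (-0.33). The HDAC1 call held only without control replicate 2 among the 6 libraries left out, with values of -0.061 to -0.048 where it was lost.

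**Figure D5:**
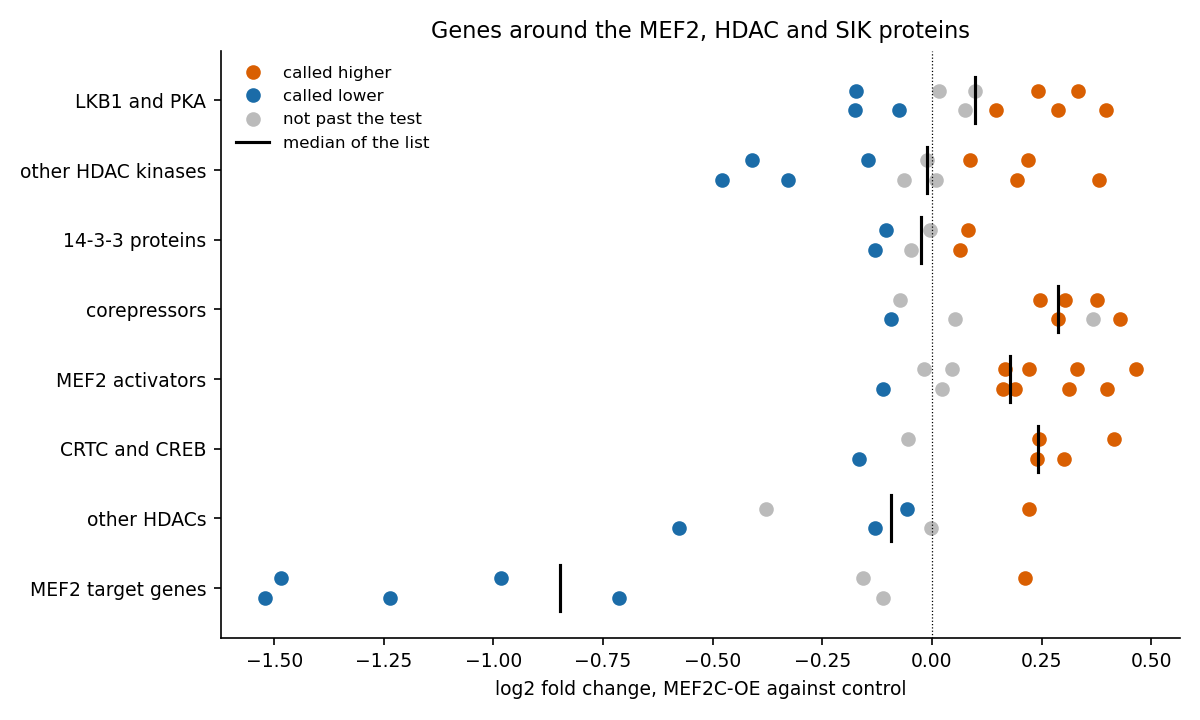
Log2 fold change of MEF2C-OE against control for the tested genes of the 8 pathway lists, one point per gene, with called genes marked and a line at each list's median. The list medians run from -0.85 for the MEF2 target genes to 0.29 for the corepressors.

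The MEF2 target list, drawn from muscle, neuron and T-cell work, was mostly silent or lower. Of its 17 genes 9 were not tested and had at most 20 reads in any library, muscle genes such as CKM and MYOG among them at 0. Of the 8 tested, 5 fell and 1 rose (median -0.85). NR4A1, an orphan nuclear receptor induced by antigen-receptor signals, measured 8.92, 9.55 and 9.17 CPM in control and 4.09, 3.95 and 3.69 CPM in MEF2C-OE (log2 fold change -1.24). NR4A3 fell from 5.17 ± 0.465 to 1.80 ± 0.221 CPM (-1.52), and all MEF2C-OE libraries of both receptors were below control. ARC (-1.48), KLF2 (-0.98) and JUN (-0.71) also fell, and KLF6 rose (0.21), a call lost without control replicate 3 (0.18) or MEF2C-OE replicate 1 (0.16). With the trend removed the counts were 5 lower and 1 higher and the median was -0.67.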

How the data were processed

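TruSeq libraries of TRIzol-extracted RNA were sequenced, per the labels. The authors deposited raw counts of reads per gene, made with Trim Galore, STAR and HTSeq on hg38, per the submitters' processing notes; versions, annotation release and strand setting were not given in the sources used here. Summary lines were left out: reads outside features were 20.9% to 21.8%, reads counted as ambiguous 3.31% to 3.46%, and reads that did not align uniquely 4.03% to 4.68%.

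Replicates of a group differed by more than counting noise (chi-square per degree of freedom 3.02 to 4.88), so each library was kept as 1 sample. Counts were tested in edgeR 4.0.16 (R 4.3.3) with filterByExpr, TMM and a robust quasi-likelihood fit of the 3 MEF2C-OE against the 3 control libraries, adjusted by Benjamini-Hochberg over all 19086 genes tested, and called at 0.05. Standard errors came from the fold change and the F statistic. Exon and coding lengths, GC content and positions came from GENCODE 29, and 88.8% of genes tested had GC content and length. The removed trend was fitted per library with splines of 5 degrees of freedom and entered as an offset. Shares used scipy 1.17.1, and figures matplotlib 3.10.9.

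The members and lists were chosen with earlier results of these data known. Named pathway genes were up to 4 called genes a list with the largest change at 1 CPM or more, besides overlapping genes with at least 10 reads and the 3 genes of nearest pattern for MEF2A and HDAC4, the members of highest mean CPM called higher and called lower; others named were chosen after their values were seen. A gene that the rule takes is not reported here. Alternatives covered scaling, count filters, DESeq2 1.42.0, limma-voom (limma 3.58.1), a fold threshold, a replicate block, the GC and length trend and each library left out. The floor of 3 reads is 0.0527 to 0.0622 CPM and covers counting error only.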

Additional observations from a re-analysis of the deposited data

How the results depend on the processing

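Over 16 alternatives the count of the 10 genes called higher ran from 2 to 5 and the count called lower from 2 to 4. The lowest counts came from the test against a 1.2-fold change, with 2 higher (MEF2C and SIK2) and 2 lower of the 10. Of the pathway genes 8 were then higher and 7 lower, and of all 19086 genes tested 937 were higher and 1003 lower. With each library left out in turn, 4 to 5 of the 10 were higher and 4 lower, and 26 to 30 pathway genes were higher and 17 to 20 lower. A filter of 1 CPM left out MEF2B and MEF2C. With a replicate block 4 of the 10 were higher and 4 lower, and 31 pathway genes were higher and 19 lower; same-numbered libraries did not deviate together (correlations of 0.0247, -0.0313 and -0.0265 over 10725 genes), so the numbers were not taken as pairs. Of 71 named genes with a test, 44 kept direction and call in every alternative other than the fold threshold. Cell markers, PPP3R1 and the neighbours of HDAC4 were not among the 71. With the GC and length trend removed, log2 fold changes turned sign for HDAC9 (-0.11), YWHAB (-0.010), MIR4440 (0.080), MIR4441 (0.14), PPP2R1B (-0.055), ARHGAP45 (0.057), AP2M1 (0.044), STK11 (0.023), CTBP1 (0.066), HDAC3 (0.014), CRTC2 (0.027) and CABIN1 (0.060; 0.0017 with library totals only). PRKACA was called higher in that analysis (0.11, edgeR adjusted p = 0.00585); otherwise without a call, it ran from -0.0098 to 0.037 with 1 library left out, below 0 without control replicate 1 and without MEF2C-OE replicate 3 (-0.0086). Among the miRNA genes in HDAC4 introns, which had few reads and no call, leaving out 1 library gave -0.44 to 0.021 for MIR4440 (above 0 without control replicate 3), -0.30 to 0.27 for MIR4441 (highest without control replicate 3, and 0.13 without MEF2C-OE replicate 1), and -0.013 to 0.31 for MIR2467 (lowest without MEF2C-OE replicate 2, and -0.00601 without control replicate 2). The causes were not tested. HDAC9 was also called higher with library totals only (0.10). The median of all genes moved from -0.01 to between -0.03 and 0.01, and the share of higher calls among all calls lay between 46.9% and 55.3%, against 50.7%. Depth limits MEF2B, MEF2C and the intronic miRNA genes, which rest on at most 41 reads a library.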

Other observations

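MIR4440, MIR4441 and MIR2467 are annotated in introns of HDAC4 on its strand. They had 8 to 15, 15 to 30 and 24 to 35 reads a library, with log2 fold changes of -0.24, -0.06 and 0.10 and edgeR adjusted p of 0.783, 0.936 and 0.856. These are reads over the annotated hairpins, and mature miRNAs were not measured separately.

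An unnamed gene inside an HDAC7 intron on its strand (ENSG00000274737) had 69 to 79 reads in control libraries and 35 to 62 in MEF2C-OE libraries, with a log2 fold change of -0.51 (edgeR adjusted p = 0.105). An antisense gene over HDAC7 exons (ENSG00000268069) shares 963 exon bases with it and had 17 to 54 reads in control and 35 to 57 in MEF2C-OE, with a log2 fold change of 0.42 (edgeR adjusted p = 0.375).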
